A study of Mus musculus with 17 samples.

Results

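The genes described here are 10 members of the machinery by which mammalian cells sense endotoxin, the lipopolysaccharide (LPS) of gram-negative bacteria: *Lbp*, *Cd14*, *Ly96*, *Tlr4*, *Tlr2*, *Myd88*, *Ticam1*, *Irak3*, *Tnfaip3*, and *Tnf*. They were taken by symbol from the deposited table of array ratios, which names 21452 symbols on 41174 non-control probes. The 10 members have 14 probes (3 for *Irak3*, 2 each for *Tlr4* and *Ticam1*, and 1 for each of the other members), and all 14 passed the filter on low signal. A gene is represented by its probe with the brightest liver signal, and the other probes are given where they exist.

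The samples are livers of 17 male mice, 1 array per mouse. Chow mice (n = 4) had chow diet and a maltose gavage, 1B mice (n = 4) had chow diet and 1 ethanol gavage of 5 g/kg, HFD mice (n = 4) had high-fat diet and maltose, and HFD+1B mice (n = 5) had high-fat diet and the ethanol gavage. Diets ran for 3 months in all groups, livers were taken 9 hours after the gavage, and the comparison asks how an obesogenic diet and an ethanol binge act on the liver, alone and together. The labels name the strain C57BL/6N and the methods C57BL/6J, no age is given beyond the feeding time, and a single binge models acute but not chronic drinking.

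In the liver, portal blood carries bacterial products from the gut. LBP, a plasma protein made by hepatocytes, extracts LPS and hands it to CD14, a surface protein of macrophages and, in inflammation, of other liver cells, which passes it to the complex of MD-2 (the product of *Ly96*) and TLR4. TLR4 signals through the adaptors MyD88 and TRIF (the product of *Ticam1*) to nuclear factor kappa B and interferon regulatory factors. IRAK-M (the product of *Irak3*) and A20 (the product of *Tnfaip3*) restrain this signal, and *Tnf* is a classic target of it.

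Each value below is the log2 ratio of the liver signal (Cy5) to a reference RNA mixture (Cy3) that was the same on every array, after background correction and loess normalization. After loess, a value of 0 means the typical ratio of liver to reference for probes of like intensity on that array. It does not mean equal signal in both. A difference of 1 between groups is a 2-fold change. Levels of different genes cannot be compared with each other, since each probe binds with its own strength. Differences were tested with limma over 34650 probes with Benjamini-Hochberg adjustment, and "rose" and "fell" are used for an adjusted p of 0.05 or less. Each of 5 array slides carried mice of 3 or 4 groups. Array medians of Cy5 ran from 63 to 158 intensity units over a local background of 20 to 22, and between 73.8% and 85.9% of probes were well above background. All 8 hepatocyte markers were detected on every array. Some lists of other cells were detected as fully, among them all 4 T cell and all 3 B cell markers. Detection therefore does not identify the tissue, which is taken from the labels.

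Across the members the largest change was that of *Cd14*, which was 14.5-fold higher in HFD+1B livers than in chow livers. *Lbp* rose 2.22-fold in the same comparison. *Ticam1*, *Irak3*, and *Tnfaip3* rose by less than 2-fold there, and *Ly96*, *Tlr4*, *Tlr2*, *Myd88*, and *Tnf* did not pass the test. In all, 5 of 10 members rose and 0 fell in HFD+1B against chow, where 16.3% of 19350 genes tested were called in either direction and 8.89% were called higher. In 4 of 10 members (*Cd14*, *Lbp*, *Ticam1*, and *Tnfaip3*) all HFD+1B mice were above all chow mice, as they were in 8.15% of all genes. The median difference of the 10 members was 0.28 on the log2 scale, and that of all genes was 0.0006. Members were chosen with earlier results of these data known, so these counts are a description and not a test.

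In the other comparisons fewer members passed. In 1B against chow 1 member rose (*Lbp*) and 0 fell, where 4.13% of all genes were called. In HFD against chow 0 rose and 1 fell (*Tnf*), where 11% of genes were called and 6.48% were called lower. Compared with HFD, 2 members rose in HFD+1B (*Cd14* and *Lbp*), where 19.4% of genes were called, a share close to that of the members. Compared with 1B, 2 members rose in HFD+1B (*Cd14* and *Tnfaip3*), where 11.4% of genes were called.

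**Figure D1:**
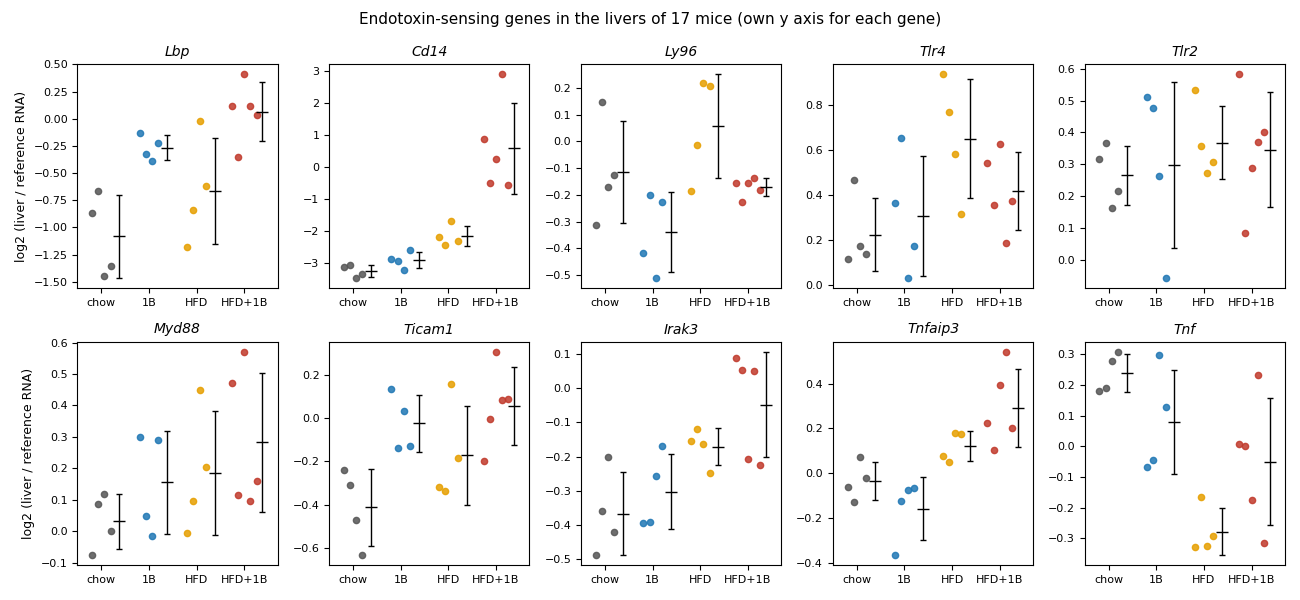
Log2 ratio of liver to reference RNA (y axis, with its own range for each gene) in chow, 1B, HFD, and HFD+1B mice (x axis) for the 10 endotoxin-sensing genes. Each point is 1 mouse, and the bar beside the points is the group mean with its SD (n = 4, 4, 4, and 5). *Cd14* in the 5 HFD+1B mice lies between -0.57 and 2.90, above all other mice, whereas the points of *Tlr2* overlap between all groups.

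Before the values by gene, 3 sequences show what was measured and what precedes the genes. The 60-base probe of *Lbp*, taken from the deposited table, carries the second largest change of the members. The windows of *Tnfaip3* and *Tlr2* are the 250 bases before the annotated transcription start in RefSeq (GRCm38.p6), and they are shown because both hold matches to the nuclear factor kappa B motif while *Tnfaip3* was called in HFD+1B mice and *Tlr2* was not. *Tnfaip3* is at chr10:19015411-19015660 and *Tlr2* at chr3:83841609-83841858, both on the minus strand and written 5′ to 3′ along the gene. Capitals mark motif matches.

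*Lbp* probe: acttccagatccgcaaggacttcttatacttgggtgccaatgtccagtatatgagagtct

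*Tnfaip3* window: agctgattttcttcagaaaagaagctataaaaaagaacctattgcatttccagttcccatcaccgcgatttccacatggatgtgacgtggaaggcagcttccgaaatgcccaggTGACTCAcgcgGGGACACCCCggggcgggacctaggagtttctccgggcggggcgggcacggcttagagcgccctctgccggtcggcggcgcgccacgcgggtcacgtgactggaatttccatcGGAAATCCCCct

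*Tlr2* window: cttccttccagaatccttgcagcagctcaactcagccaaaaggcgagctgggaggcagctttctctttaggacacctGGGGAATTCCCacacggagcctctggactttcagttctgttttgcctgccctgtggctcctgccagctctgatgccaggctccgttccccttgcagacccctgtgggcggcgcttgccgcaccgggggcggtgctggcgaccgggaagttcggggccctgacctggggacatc

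The *Tnfaip3* window holds 2 matches to the nuclear factor kappa B motif, beginning 125 and 12 bases before the start site, and 1 match to the AP-1 motif TGANTCA, beginning 136 bases before it. None of these overlaps another. The *Tlr2* window holds 2 overlapping matches to the nuclear factor kappa B motif, beginning 173 and 172 bases before the start, so they form 1 stretch. Both strands were searched, and of all 32851 RefSeq windows of this length 3.9% hold a nuclear factor kappa B match and 6.75% hold an AP-1 match. Windows were found for 6 of the 10 members (8 windows), namely *Tlr2*, *Myd88*, *Ticam1*, *Irak3*, *Tnfaip3*, and *Tnf*. *Lbp*, *Cd14*, *Ly96*, and *Tlr4* have none here. *Myd88* holds 1 match each to the interferon regulatory factor motif (in 2.98% of windows) and to a STAT motif (TTCNNNGAA, in 7.02%), which overlap each other. The windows of *Ticam1*, *Irak3*, and *Tnf*, and a second *Tnfaip3* window, have 0 matches to these 4 motifs. A match describes letters in the window, and binding was not measured.

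*Lbp* encodes the plasma carrier that loads LPS onto CD14. Its log2 ratios were -0.87, -0.66, -1.45, and -1.36 in the 4 chow mice and -0.13, -0.33, -0.39, and -0.22 in the 4 1B mice. They were -1.18, -0.84, -0.02, and -0.61 in the HFD mice and 0.12, -0.35, 0.41, 0.12, and 0.03 in the HFD+1B mice. Every mouse given ethanol, on either diet, was above every chow mouse, and the HFD mice spread across both.

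*Lbp* was 2.22-fold higher in HFD+1B than in chow (log2 difference 1.15, SE 0.20, limma adjusted p = 0.000761). It was also higher in 1B than in chow, by 0.82 (SE 0.21, adjusted p = 0.0403), with no overlap between the groups. This call sat near the threshold: it was lost without any 1 of chow mice 1, 3, or 4, of the 4 1B mice, of HFD mouse 4, or of HFD+1B mouse 5 (adjusted p = 0.0505 to 0.153). It was also lost with the offset of 10, no filter on low signal, median centring, the authors' table, Cy5 alone, the replicate number as a block, and the Tukey test after adjustment (adjusted p = 0.0535 to 0.481), while the difference stayed at 0.69 or more in all of these. On the high-fat diet, ethanol raised *Lbp* by 0.73 (SE 0.20, adjusted p = 0.0191) with overlapping groups, and the call was lost without HFD mouse 1 (adjusted p = 0.0665) or HFD mouse 2 (adjusted p = 0.0524). HFD alone differed from chow by 0.42 (adjusted p = 0.233) and HFD+1B from 1B by 0.33 (95% interval -0.09 to 0.76, adjusted p = 0.384), neither of which passed. Within slides, *Lbp* was higher in HFD+1B than in chow on 4 of 4 slides (differences of 0.70 to 1.76) and higher in 1B than in chow on 3 of 3 slides (0.34 to 1.06).

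*Cd14* encodes the co-receptor that takes LPS from LBP, a surface protein best known from monocytes and macrophages. In chow mice its log2 ratios were -3.14, -3.09, -3.47, and -3.37, and in 1B mice -2.90, -2.93, -3.24, and -2.61. In HFD mice they were -2.18, -2.45, -1.70, and -2.33, and in HFD+1B mice 0.89, -0.52, 0.24, 2.90, and -0.57. All 5 HFD+1B mice were above all other mice, all 4 HFD mice were above all chow and 1B mice, and chow and 1B overlapped.

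The liver signal behind these ratios was well above background on all 17 arrays. The Cy5 intensity of the *Cd14* probe ran from 86 to 95 in chow mice, from 91 to 145 in 1B mice, from 68.5 to 214 in HFD mice, and from 484 to 8290 in HFD+1B mice. The low groups lay only a few fold above the local background of about 20, where background correction shrinks ratios, and the fold changes against them depend on that correction.

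HFD+1B livers exceeded chow livers in *Cd14* by 3.85 log2 units (SE 0.47, 95% interval 2.86 to 4.85, limma adjusted p = 2.49e-05). Against HFD mice it was 2.75 higher, or 6.74-fold (SE 0.47, adjusted p = 0.000906), and against 1B mice 3.51 higher, or 11.4-fold (SE 0.47, adjusted p = 0.000161). These 3 calls stood in every alternative processing and without any single mouse. Ethanol on chow gave 0.35 (95% interval -0.70 to 1.40, adjusted p = 0.873), an interval that still holds a 2-fold rise.

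HFD alone gave 1.10 (SE 0.50, adjusted p = 0.173), without overlap between the groups but short of the threshold. The shared estimate of spread includes the wide HFD+1B group (SD 1.42, against 0.18 to 0.33 in the other groups). Without HFD+1B mouse 4, which had the highest *Cd14* value, the same difference had an adjusted p of 0.0115, and with only the chow and HFD arrays in the fit it had an adjusted p of 0.00267.

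Whether ethanol acted differently on the 2 diets was tested as the interaction, the ethanol difference on HFD less the ethanol difference on chow. For *Cd14* it was 2.41 (SE 0.69, 95% interval 0.96 to 3.86, limma adjusted p = 0.0566), a 5.30-fold larger response on HFD that missed the threshold. It passed without HFD+1B mouse 2 (2.68, adjusted p = 0.0351), mouse 4 (1.83, adjusted p = 0.0176), or mouse 5 (2.69, adjusted p = 0.0244), and with the slide as a block (2.78, adjusted p = 0.0209). Counting every alternative run for it, the *Cd14* interaction passed in 10 of 28. No other member came closer, so 0 of 10 members were called, where 4.39% of all genes were. Unadjusted limma p-values of the interaction were 0.00266 for *Cd14*, 0.0194 for *Tnf*, and 0.0460 for *Tnfaip3*. These are not on the scale of the 4.39%, which counts adjusted p-values.

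**Figure D2:**
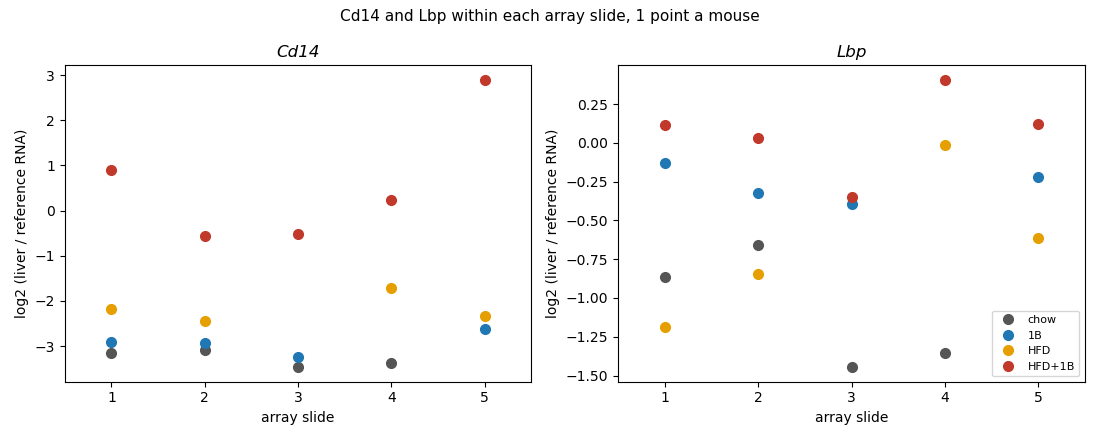
Log2 ratio of liver to reference RNA (y axis) of *Cd14* (left) and *Lbp* (right) on each of the 5 array slides (x axis), with 1 point per mouse colored by group. On each slide the HFD+1B mouse has the highest *Cd14* value. Within slides it exceeded chow by 2.52 to 4.03 (4 slides) and HFD by 1.88 to 5.22 (4 slides) on the log2 scale.

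*Ly96* encodes MD-2, the part of the TLR4 complex that binds LPS directly. Its log2 ratios were -0.31, 0.15, -0.17, and -0.13 in chow mice and -0.42, -0.20, -0.51, and -0.23 in 1B mice. They were -0.18, -0.01, 0.22, and 0.21 in HFD mice and -0.16, -0.23, -0.16, -0.14, and -0.18 in HFD+1B mice. Both high-fat groups and the 1B mice overlapped with chow, all 4 HFD mice were above all 1B mice (a pair that was not compared), and none of the comparisons made passed: HFD+1B differed from chow by -0.06 (95% interval -0.28 to 0.16, limma adjusted p = 0.809), 1B from chow by -0.22 (adjusted p = 0.390), and HFD+1B from HFD by -0.23 (adjusted p = 0.144). The sign of the first difference turned without chow mouse 2 (0.03) and with median centring (0.01).

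*Tlr4* encodes the LPS receptor itself. Its brighter probe gave 0.12, 0.46, 0.18, and 0.14 in chow mice and 0.37, 0.65, 0.03, and 0.18 in 1B mice. It gave 0.93, 0.77, 0.58, and 0.32 in HFD mice and 0.54, 0.35, 0.63, 0.19, and 0.38 in HFD+1B mice. The 3 highest of 4 HFD mice were above all chow mice, but the fourth was not.

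*Tlr4* in HFD was 0.43 above chow (SE 0.15, limma adjusted p = 0.0737) and in HFD+1B 0.19 above chow (95% interval -0.10 to 0.49, adjusted p = 0.428). The HFD difference passed without HFD mouse 4 (0.54, adjusted p = 0.0374), and in the authors' own table of log2 ratios it was 1.05 (adjusted p = 0.0181). Counting these, it passed in 7 of 31 alternatives. The other *Tlr4* probe, which shares no run of more than 6 bases with the first and was printed in 10 spots, gave 0.03 for HFD against chow (95% interval -0.14 to 0.20, adjusted p = 0.879) and 0.03 for HFD+1B against chow (adjusted p = 0.843). The probes of *Tlr4* thus disagreed on HFD, and both were dim, with Cy5 intensities of 39.6 to 142 over all mice. The *Tlr4* interaction was -0.31 (adjusted p = 0.416).

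*Tlr2* encodes the receptor for bacterial lipoproteins. Its ratios were 0.16 to 0.37 in chow mice, -0.05 to 0.51 in 1B mice, 0.27 to 0.53 in HFD mice, and 0.09 to 0.58 in HFD+1B mice, and all groups overlapped. HFD+1B differed from chow by 0.08 (95% interval -0.17 to 0.33, limma adjusted p = 0.749). No comparison of *Tlr2* passed.

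*Myd88* encodes the adaptor shared by most Toll-like receptors. It was at -0.08 to 0.12 in chow mice, -0.02 to 0.30 in 1B mice, -0.01 to 0.45 in HFD mice, and 0.10 to 0.57 in HFD+1B mice. The difference of HFD+1B and chow was 0.25 (95% interval 0.0007 to 0.50, unadjusted p = 0.0494 and adjusted p = 0.187 in limma), and the groups overlapped.

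*Ticam1* encodes TRIF, the adaptor of the interferon branch of TLR4 signaling. Its log2 ratios were -0.24, -0.31, -0.47, and -0.63 in chow mice and 0.13, -0.14, 0.03, and -0.13 in 1B mice. They were -0.32, -0.34, 0.16, and -0.19 in HFD mice and -0.20, -0.01, 0.30, 0.08, and 0.09 in HFD+1B mice. On this brighter probe both ethanol groups were above all chow mice without overlap.

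*Ticam1* rose by 0.47 in HFD+1B against chow, or 1.38-fold (SE 0.12, limma adjusted p = 0.0129), a call that was lost without chow mouse 4 (adjusted p = 0.0588) and in the authors' table (0.47, adjusted p = 0.0886). In 1B against chow the difference was 0.39 (SE 0.13, adjusted p = 0.120) and in HFD+1B against HFD 0.23 (adjusted p = 0.212), and neither passed. The second *Ticam1* probe shares 40 bases with the first, so it is not independent of it. This second probe gave 0.34 for HFD+1B against chow (adjusted p = 0.0491), with overlap between the groups.

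*Irak3* encodes IRAK-M, an inhibitor of MyD88 signaling found mainly in macrophages. Its log2 ratios were -0.49, -0.36, -0.20, and -0.42 in chow mice and -0.39, -0.39, -0.26, and -0.17 in 1B mice. They were -0.15, -0.12, -0.16, and -0.25 in HFD mice and 0.09, 0.05, -0.21, 0.05, and -0.23 in HFD+1B mice. In HFD+1B 3 of 5 mice were above all others and the remaining 2 lay among the chow mice.

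*Irak3* rose by 0.32 in HFD+1B against chow, or 1.25-fold (SE 0.09, limma adjusted p = 0.0235). The call was lost without chow mouse 1 or 4 or HFD+1B mouse 1, 2, or 4 (adjusted p = 0.0528 to 0.0737). Of all 31 alternatives 9 lost it, 5 by leaving out 1 mouse and the rest by a change of processing, arrays fitted, or test. In the authors' table the same difference was 1.18 (adjusted p = 0.0013), and there HFD was also above chow (0.76, adjusted p = 0.0334, against 0.20 and 0.210 here). The other 2 *Irak3* probes gave 0.24 (adjusted p = 0.0910) and 0.18 (adjusted p = 0.265), the same direction without a call. HFD+1B against 1B gave 0.25 (adjusted p = 0.0896). The *Irak3* probe was dim, with Cy5 intensities of 38 to 109.

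*Tnfaip3* encodes A20, a ubiquitin-editing enzyme that ends nuclear factor kappa B signaling and is itself a target of that factor. Its log2 ratios were -0.06, -0.13, 0.07, and -0.02 in chow mice and -0.36, -0.12, -0.08, and -0.07 in 1B mice. They were 0.08, 0.05, 0.18, and 0.18 in HFD mice and 0.22, 0.10, 0.39, 0.54, and 0.20 in HFD+1B mice. All 5 HFD+1B mice were above all chow and 1B mice and overlapped with HFD mice.

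*Tnfaip3* was 1.37-fold higher in HFD+1B than in 1B (log2 difference 0.45, SE 0.10, limma adjusted p = 0.00531) and 1.25-fold higher than in chow (0.33, SE 0.10, adjusted p = 0.0261). The first call was lost only with the Cy5 channel alone (0.30, adjusted p = 0.144), and in the authors' table that difference was 1.35 (adjusted p = 0.00495). The second was lost without chow mouse 1, 2, or 4 or HFD+1B mouse 3 or 4 (adjusted p = 0.0576 to 0.0806). Over all 31 alternatives the second call was lost in 10. Of these, 5 left out 1 mouse, and the rest changed the processing, the arrays fitted, or the test. HFD+1B against HFD gave 0.17 (adjusted p = 0.226), and the interaction was 0.30 (adjusted p = 0.242). Cy5 intensities of *Tnfaip3* were 39 to 96, again close to background.

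*Tnf* encodes the inflammatory cytokine that endotoxin induces in macrophages. Chow mice had log2 ratios of 0.18, 0.19, 0.28, and 0.31, and 1B mice had -0.07, -0.04, 0.30, and 0.13. Ratios were -0.33, -0.17, -0.33, and -0.29 in HFD mice and 0.01, 0.00, -0.18, 0.23, and -0.31 in HFD+1B mice. All HFD mice were below all chow and 1B mice, and HFD+1B mice ranged across both.

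*Tnf* fell by 0.52 in HFD against chow, which is 1.43-fold lower (SE 0.11, limma adjusted p = 0.00659), and was 1.31 lower on the log2 scale in the authors' table (-1.31, adjusted p = 0.0034). The call was lost with the Tukey test after Benjamini-Hochberg adjustment (adjusted p = 0.0669). Cy5 intensities of *Tnf* were 39.95 to 56.5 in HFD mice, close to background, and 89.2 to 185 in chow mice. Array medians of Cy5 were also lower in HFD (63 to 98) than in chow (99 to 138). HFD+1B differed from chow by -0.29 (adjusted p = 0.0730), a call gained without HFD+1B mouse 4 (-0.36, adjusted p = 0.0239). It differed from HFD by 0.23 (adjusted p = 0.141), a call gained without HFD+1B mouse 5 (0.29, adjusted p = 0.0473). 1B against chow was -0.16 (adjusted p = 0.612), and the interaction was 0.39 (adjusted p = 0.155). *Cd14* and *Tnf* therefore differed in opposite directions from chow in HFD mice, 1.10 higher without a call and 0.52 lower with one.

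**Figure D3:**
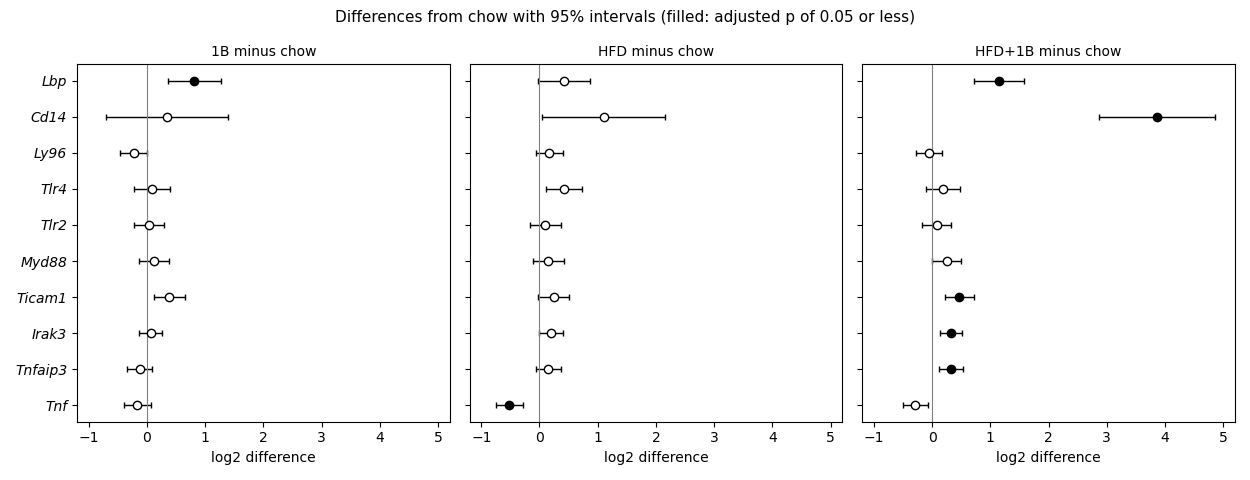
Log2 differences from chow (x axis) in 1B (left), HFD (middle), and HFD+1B mice (right) for the 10 genes (rows). Bars are 95% intervals from limma and filled points have an adjusted p of 0.05 or less. In HFD+1B 5 points are filled, led by *Cd14* at 3.85 and *Lbp* at 1.15, while in HFD the filled point is *Tnf* at -0.52.

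In whole liver, more cells of a type and more RNA per cell cannot be told apart. Markers of the cells of the liver were therefore set beside *Cd14*. Over all genes 16.3% were called in HFD+1B against chow and 19.4% in HFD+1B against HFD. In lists this short, 0 or 1 call cannot be told from those shares. Of 7 Kupffer cell and macrophage markers tested, 1 was higher in HFD+1B than in chow, *Cd68*, a lysosomal protein of macrophages (1.37, SE 0.20, limma adjusted p = 1.15e-04), and the mean log2 ratio of the list ran from -0.40 to 0.09 in chow mice, from -0.31 to -0.10 in 1B mice, from 0.13 to 0.37 in HFD mice, and from 0.10 to 0.52 in HFD+1B mice. Of the same list 0 of 7 was called in HFD+1B against HFD, where *Cd14* was 2.75 higher. Of 5 monocyte markers 0 were called in either comparison.

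Of 10 neutrophil markers, 3 rose in HFD+1B against chow and 1 fell. *S100a8*, a calcium-binding protein of neutrophils, was not well above background in any chow mouse and was at least 2.63-fold higher in HFD+1B, a bound open to dye bias since dyes were not swapped. *S100a9*, its partner, was 1.04 higher (adjusted p = 0.0016), *Mmp8*, neutrophil collagenase, 0.45 higher (adjusted p = 0.0465), and *Csf3r*, the G-CSF receptor, 1.04 lower (-1.04, adjusted p = 0.00466). The *Mmp8* call held only without 1B mouse 4, HFD mouse 1 or 3, or HFD+1B mouse 2, 3, or 4, and was lost without any 1 of the other 11 mice (adjusted p = 0.0516 to 0.139). The mean of the neutrophil list was -0.05 to 0.27 in chow and 0.07 to 0.53 in HFD+1B mice.

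Lists of the other liver cells also held called genes in HFD+1B against chow, where 16.3% of all genes were called. Of 6 stellate cell markers 4 rose and 0 fell: *Lrat*, which stores vitamin A as retinyl esters, by 1.04 (limma adjusted p = 0.00295), *Dcn*, the matrix protein decorin, by 1.04 (adjusted p = 0.00442), *Pdgfrb*, a growth factor receptor, by 0.61 (adjusted p = 0.00894), and *Des*, the filament protein desmin, by 0.58 (adjusted p = 0.000245). The mean log2 ratio of this list ran from -0.71 to -0.27 in chow mice and from -0.52 to 0.59 in HFD+1B mice, with 0.0009 to 0.40 in HFD mice. Against HFD, 1 of the 6 was higher in HFD+1B and 0 were lower.

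Of 6 markers of the sinusoidal endothelium 1 rose and 2 fell. *Lyve1*, a hyaluronan receptor, was 3.19 higher (SE 0.15, limma adjusted p = 1.03e-09), with chow mice at -2.83 to -2.66 and HFD+1B mice at 0.18 to 0.72. *Kdr*, a receptor for vascular endothelial growth factor, was at -1.05 (adjusted p = 2.16e-05), and *Clec4g*, a lectin, at -0.82 (adjusted p = 0.00745). The *Clec4g* difference was near 0 over the mean of its probes (-0.01, adjusted p = 0.955). Against HFD, 1 of the 6 was higher and 3 were lower. The list mean ran from -0.46 to -0.31 in chow mice and from -0.31 to 0.01 in HFD+1B mice.

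Of 8 hepatocyte markers 2 rose and 1 fell. *Fgb*, a chain of fibrinogen, was 1.90 higher (adjusted p = 0.00401 by limma) and *Tat*, an enzyme of tyrosine breakdown, 1.43 higher (adjusted p = 0.00819), with *Serpina1c*, a protease inhibitor of plasma, at -0.94 (adjusted p = 0.00179). Their list mean ran from 0.22 to 0.42 in chow mice and from 0.15 to 0.84 in HFD+1B mice. Of 4 T cell and 3 B cell markers 0 were called. The part of any of these cells in the *Cd14* difference was not tested.

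Of 98 other genes of Toll-like receptor signaling that were listed by role, 89 were tested. In HFD+1B against chow 23 of the 89 rose and 3 fell, set against 8.89% higher and 7.41% lower over all genes. Against chow, 4 rose and 2 fell in 1B (2.09% and 2.05% over all genes), while 7 rose and 4 fell in HFD (4.5% and 6.48%). HFD+1B had 20 higher and 2 lower than HFD (11% and 8.4%) and 21 higher and 3 lower than 1B (6.27% and 5.15%). These comparisons share samples, so their counts are not independent of each other. The lists were chosen with earlier results of these data known, so the counts are a description and not a test.

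The other Toll-like receptors did not pass in HFD+1B against chow, with 0 of 7 called and differences from -0.03 to 0.29. Among other ligand-binding proteins 2 rose and 1 fell of 9. *Cd36*, a scavenger receptor and fatty acid carrier, was 2.20 higher (SE 0.27, limma adjusted p = 2.19e-05), with *Ly86*, the MD-1 partner of the receptor RP105, at 0.48 (adjusted p = 0.0398) and *Hmgb1*, a nuclear protein released by dying cells, at -0.37 (adjusted p = 0.0269). Without ethanol, HFD already exceeded chow in *Cd36* by 1.80 (adjusted p = 0.000834) and in *Ly86* by 0.76 (adjusted p = 0.00616). The *Ly86* call was lost without chow mouse 1, 3, or 4 or HFD+1B mouse 2, 4, or 5 (adjusted p = 0.0762 to 0.131), and that of *Hmgb1* without chow mouse 1, 3, or 4 or HFD+1B mouse 4 or 5 (adjusted p = 0.0508 to 0.103).

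Signal transducers were called in 7 of 29 cases, 5 higher and 2 lower. *Relb*, a nuclear factor kappa B subunit, was 0.74 higher (adjusted p = 0.000637) and *Map3k8*, the kinase TPL2, 0.65 higher (adjusted p = 0.00373 by limma). *Irf5*, a transcription factor of inflammatory macrophages, was at -0.65 (adjusted p = 0.00698), and at -0.60 in HFD against chow (adjusted p = 0.0246).

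Other inhibitors were the list with the largest share called, 8 of 21 higher and 0 lower. *Atf3*, a stress-induced repressor of inflammatory genes, was 1.48 higher (SE 0.21, limma adjusted p = 1.15e-04). *Bcl3*, an atypical inhibitor of nuclear factor kappa B, was 1.30 higher (adjusted p = 0.000873), and *Tnip2*, a partner of A20, was 1.01 higher (adjusted p = 0.00198). All 3 separated HFD+1B from chow without overlap. Ethanol on chow diet alone also raised *Bcl3*, by 1.37 (adjusted p = 0.00313), while *Atf3* and *Tnip2* were not called there. On HFD without ethanol, *Atf3* (-0.44 to -0.24) was above all chow mice (-1.30 to -1.18), while *Bcl3* and *Tnip2* overlapped with chow.

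Endotoxin-induced targets rose in 8 of 23 cases and fell in 0. The leading 3 were *Lcn2* (6.17, adjusted p = 1.55e-05), *Saa3* (5.09, adjusted p = 0.00194), and *Cxcl1* (2.61, adjusted p = 1.68e-04 by limma), an iron-binding protein, an acute-phase protein, and a neutrophil chemokine. *Tnf*, of the same kind, was at -0.29 in this comparison. Ethanol on chow diet alone also raised *Lcn2* (3.29, adjusted p = 0.0191) and *Saa3* (4.11, adjusted p = 0.0372), while *Cxcl1* was not called there (0.95, adjusted p = 0.296). *Saa3* overlapped there, with 1B mice at -3.78 to 1.97 and chow mice at -5.15 to -2.91. Without ethanol, HFD mice were above all chow mice in *Lcn2* (-3.25 to 0.71 against -5.93 to -4.30), while in *Saa3* and *Cxcl1* these groups overlapped.

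**Figure D4:**
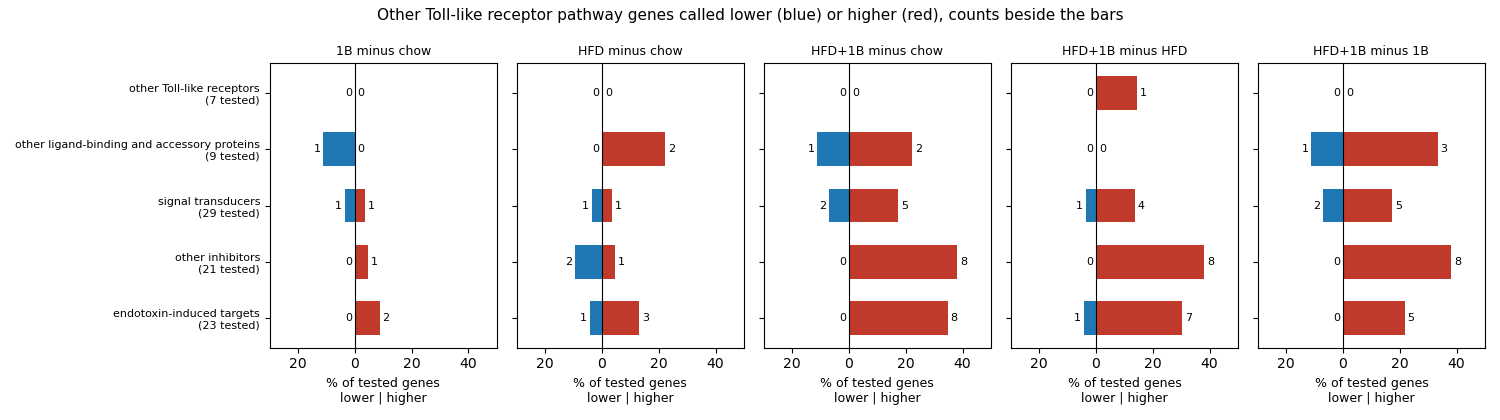
Percentage of tested genes called higher (red, to the right) or lower (blue, to the left) in 5 role lists of Toll-like receptor signaling (rows) and 5 comparisons (panels), with the number of genes beside each bar. In HFD+1B against chow 8 of 21 other inhibitors and 8 of 23 endotoxin-induced targets are higher, and 0 of 7 other Toll-like receptors are called.

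Over the 17 livers, 5 genes had the profile most like that of *Cd14*, by Pearson correlation among 15356 probes detected on all arrays. They were the histone genes *Hist2h3c1* (r = 0.98) and *Hist1h3d* (r = 0.97), *Btg2*, an antiproliferative immediate early gene (r = 0.96), *Pmepa1*, an inhibitor of TGF-beta signaling (r = 0.95), and *Dusp14*, a phosphatase of MAP kinases (r = 0.94). The points share the group structure, and without the HFD+1B mice the correlations were 0.74, 0.58, 0.53, 0.81, and 0.61. All 5 genes were higher in each HFD+1B mouse than in any other mouse, and mouse 4 was the highest for each.

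Among the members, *Tnfaip3* had the profile closest to *Cd14* (r = 0.83, and 0.60 after group means were removed). *Irak3* followed at 0.75 and *Lbp* at 0.67, with 0.32 and 0.31 within groups. *Ly96* (0.08), *Tlr4* (0.13), and *Tlr2* (0.20) were the lowest of the positive values. *Tnf* was at -0.17 over all mice and at 0.52 within groups, the second highest of the members there.

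**Figure D5:**
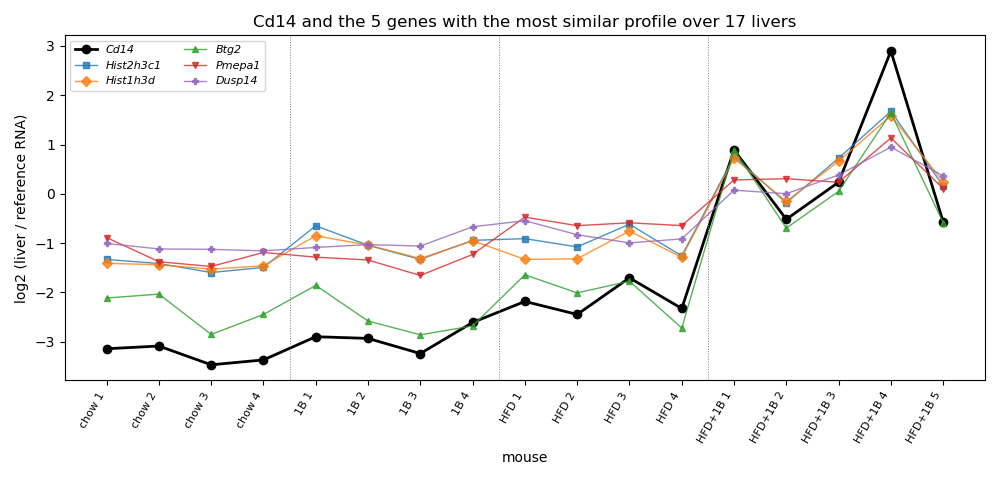
Log2 ratio of liver to reference RNA (y axis) in each of the 17 mice (x axis, groups separated by dotted lines) for *Cd14* (black) and the 5 genes with the highest correlation with it. All 6 lines are highest in HFD+1B mouse 4, where *Cd14* is at 2.90.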

How the data were processed

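Liver cDNA of 1 mouse (Cy5) and a reference RNA mixture (Cy3) shared an array, with the same dyes on all 17 arrays. The authors deposited scanner intensity values per spot from Agilent Feature Extraction (11.5.1.1 per the file headers) and a table of the log2 ratio of processed signals, which differed from the log2 of Cy5 over Cy3 processed signals by at most 2.74e-06. The deposited log10 ratio of the scanner files was used only to check the direction of that table. All value columns of that table had a sample (0 unassigned). GeneSpring and pathway analysis of the study were not repeated.

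From median spot and background intensities, signals were corrected with normexp (offset 50), outlier spots were left out, and log2 ratios were normalized by loess within arrays, with spots of a probe averaged. A probe entered the test if its Cy5 signal was flagged as well above background on 4 or more of the 17 arrays, which left 34650 probes and 19350 genes, 3424 values missing. Group means were fitted with limma 3.58.1 in R 4.3.3 (lmFit and eBayes, two-sided, 13 residual degrees of freedom before moderation), with Benjamini-Hochberg adjustment over all probes and a threshold of 0.05. Each step was tested on simulated data. The number of arrays limits the precision, and p-values cover the spread between these mice. Within-slide differences compare single arrays of 1 slide.

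Alternatives were no background subtraction, an offset of 10, the authors' table, median centring, Cy5 alone, other filters, the mean of all probes, slide or replicate number as a block, array weights, only the groups compared, the analysis of variance with the Tukey test of the methods, 2-fold thresholds, and leaving out each mouse. Symbols are those of the table (35340 probes have one), promoter windows are from RefSeq GRCm38.p6, and coordinates of probes were not used. Named are all members, the 3 largest called changes per role list in HFD+1B against chow and in the interaction, the 5 profiles most like *Cd14*, and markers called in HFD+1B against chow. Members and lists were chosen with earlier results of these data known. Figures were drawn with matplotlib 3.10.9.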

Additional observations from a re-analysis of the deposited data

Results flagged for a closer look

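Of 56 groups of values of the 14 member probes, 2 held a mouse whose gap to its nearest neighbor was large for the range of its group, where chance gives 2.8. Both were *Tlr4*. On the brighter probe, chow mouse 2 was the highest at 0.46, with the nearest chow mouse at 0.18, and the gap took 0.836 of the range. On the other *Tlr4* probe, HFD+1B mouse 4 was the lowest at -0.12, with the nearest at 0.03, a gap of 0.720 of the range. The 2 probes of *Tlr4* did not single out the same mouse.

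Of the 89 other genes of the pathway tested, 4 were called in the interaction in limma, 3 higher and 1 lower. Over all genes 4.39% were called, a share close to that of these genes. *Zfp36*, which encodes tristetraprolin, an mRNA-decay factor that limits *Tnf*, had an interaction of 2.14 (SE 0.37, adjusted p = 0.00625). It was lower in 1B (-2.12 to -0.72) than in chow (-0.83 to -0.35), with overlap, and higher in HFD+1B (-0.32 to 0.89) than in HFD (-1.11 to -0.63), without overlap. This call held without each mouse in turn.

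The other 3 calls were near the threshold. *Nfkbia*, the main inhibitor of nuclear factor kappa B, had an interaction of 0.82 (adjusted p = 0.0436), and the call held without chow mouse 2, 1B mouse 4, HFD mouse 1 or 2, or HFD+1B mouse 2 or 5 and was lost without any 1 of the other 11 mice (adjusted p up to 0.0915). *Scarb1*, a scavenger receptor for lipoproteins, had 0.55 (adjusted p = 0.0347), held without chow mouse 4, 1B mouse 3 or 4, HFD mouse 2, or HFD+1B mouse 2, 3, or 5, and lost without any 1 of the other 10 mice (adjusted p up to 0.0738). *Ikbke*, a kinase of interferon signaling, had -0.74 (adjusted p = 0.0436), held without chow mouse 1, 1B mouse 3 or 4, or HFD+1B mouse 3 or 5, and lost without any 1 of the other 12 mice (adjusted p up to 0.0960).

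Of the called cell type markers, 2 also passed the interaction in limma, 1 of 8 in the hepatocyte list and 1 of 6 in the endothelial list. In lists this short, 1 call cannot be told from the 4.39% of all genes called. *Tat* of the hepatocyte list had an interaction of 3.44 (SE 0.51, adjusted p = 0.00296), with overlap between 1B (-1.86 to -0.25) and chow (-0.82 to -0.47) and none between HFD+1B (-0.36 to 1.35) and HFD (-2.52 to -1.51). *Kdr* of the endothelial list had -0.82 (SE 0.18, adjusted p = 0.0205), and was below its diet control without overlap both in 1B (0.03 to 0.26, chow 0.46 to 0.63) and in HFD+1B (-0.85 to -0.16, HFD 0.49 to 0.85). Both calls held without each mouse in turn, and that of *Kdr* was lost with Cy5 alone (-0.72, adjusted p = 0.230).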

How the results depend on the processing

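The rise of *Cd14* in HFD+1B against chow, HFD, and 1B and that of *Lbp* against chow kept their direction and their call in all 31 alternatives run for each. The sizes of *Cd14* were 3.28 to 4.53 against chow, 2.18 to 3.23 against HFD, and 2.93 to 4.05 against 1B. An offset of 50 shrinks ratios near background, and the depth of signal of dim members limits what can be seen. Of the dim members, *Irak3* lost its call in HFD+1B against chow in 9 of 31 alternatives and *Tnfaip3* in 10. Bright members were not spared, as *Lbp* lost its call in 1B against chow in 16 of 31. Among the differences recomputed (those printed with their values), *Ly96* in HFD+1B against chow changed sign and no other did, to 0.0104 with median centring and to 0.0308 without chow mouse 2 (-0.1219 to 0.0308 without each mouse in turn).

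In 1B against chow 1 of the members was called. It was 0 with the offset of 10, the authors' table, median centring, Cy5 alone, no filter, the Tukey test after Benjamini-Hochberg adjustment, and either 2-fold rule, and 2 with array weights or the Tukey test. In HFD against chow 1 of the members was called, 3 in the authors' table, 2 without background subtraction, with the offset of 10, the slide as a block, array weights, or only these groups, and 0 with the Tukey test after adjustment and with the 2-fold rule on adjusted p. In HFD+1B against chow 5 of the members were called, 3 in the authors' table, with median centring, Cy5 alone, or only these groups, and 2 with the Tukey test after adjustment or either 2-fold rule. In HFD+1B against HFD 2 of the members were called, and 1 with Cy5 alone, the Tukey test after adjustment, or either 2-fold rule. In HFD+1B against 1B 2 of the members were called, and 1 with Cy5 alone or either 2-fold rule. In the interaction 0 of the members were called, and 1 (*Cd14*) without background subtraction, with the offset of 10, median centring, the filter on all 17 arrays, the slide as a block, array weights, or the 2-fold rule on unadjusted p.

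Without each mouse in turn the members called ranged from 0 to 1 in 1B against chow, 1 to 2 in HFD against chow, 1 to 3 in HFD+1B against HFD, 2 to 3 in HFD+1B against 1B, 2 to 5 in HFD+1B against chow, and 0 to 1 in the interaction. The count in HFD+1B against chow was 3 without chow mouse 1 and 2 without chow mouse 4. Of the other pathway genes 26 were called in HFD+1B against chow, 20 to 29 without each mouse, 16 with Cy5 alone, 11 with the Tukey test after adjustment, and 9 with either 2-fold rule. Called stellate, endothelial, and hepatocyte markers kept their calls without each mouse in turn; *Clec4g*, *Lrat*, *Pdgfrb*, and *Tat* lost theirs with Cy5 alone, these 4, *Dcn*, and *Fgb* with the Tukey test after adjustment, and *Clec4g* with the mean of its probes. The cause of these shifts was not tested.

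Replicate numbers of the titles were not taken to pair the mice, since not every same-numbered pair correlated in its deviations from the group means: the range was -0.13 to 0.48 (median 0.18, 16 of 24 pairs over 0.1), against a median of -0.05 for other numbers (19 of 84 over 0.1), and 9 of 17 arrays correlated best with their own number. Numbers partly follow the slide, and arrays of 1 slide had a median of 0.20 (16 of 21 over 0.1). With the replicate number as a block, the members called were 0 in 1B against chow, 2 in HFD against chow, 3 in HFD+1B against HFD, 2 in HFD+1B against 1B, 5 in HFD+1B against chow, and 1 in the interaction (*Cd14*, 2.69).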
